A study of Rattus norvegicus with 8 samples.

Results

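Dopamine and noradrenaline act on G protein-coupled receptors. Of the 9 receptor genes described here, Drd1 encodes a dopamine receptor coupled to stimulatory G proteins, while Drd2 and Drd4 encode dopamine receptors coupled to inhibitory G proteins. Adra1a, Adra1b and Adra1d encode alpha-1 adrenergic receptors, which couple to Gq and phospholipase C. Adra2a and Adra2c encode alpha-2 adrenergic receptors, which couple to inhibitory G proteins and serve as autoreceptors on noradrenergic neurons as well as receptors on their target cells. Adrb1 encodes the beta-1 adrenergic receptor, which raises cyclic AMP. Noradrenergic fibres from the locus coeruleus reach the thalamus, where alpha-1 receptors are known to depolarise relay neurons.

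The tissue was medial thalamus, taken from male rats of the Sprague-Dawley strain that are labelled conscious. In 4 animals the trachea was blocked repeatedly in daily sessions for 10 days, with blocks of 3 to 10 breaths and pauses of about 30 s, and 4 surgical controls attended sessions without any block. All animals were killed by anaesthetic overdose within 10 min of the session on day 10, so both groups shared the sessions and the anaesthetic. RNA of each animal was hybridised to 1 Agilent array, and each of 2 slides held 2 occlusion arrays and 2 control arrays.

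All probes carrying the name of 1 of these 9 genes were taken, with Drd1 under its older name Drd1a. They were 11 of the 41012 probes on the array, and 9 of 18319 distinct gene names: 3 for Adra1b and 1 for each of the others. Each probe had 1 spot per array, except those of Drd1 and Drd2, which had 10 spots each. A level is the log2 processed intensity after subtraction of the array's 75th percentile, so a level of 0 is that percentile and a difference of 1 is a 2-fold difference. Levels of different probes are not on a common scale and were not compared. Of the 11 probes, 9 probes of 7 genes cleared the background on 4 or more of the 8 arrays and were tested with limma among 27152 such probes. Those of Drd4 and Adra1a were too dim.

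Between 65.0 and 71.6% of the spots of an array were well above background, and the intensity at the 75th percentile lay between 1439 and 2216. The number of arrays limits the precision of all differences. The labels give no dissection or extraction days. Of 15 thalamic relay neuron markers, 12 were well above background on all 8 arrays, Tcf7l2 and Synpo2 were not matched to a probe, and the means of relay and inhibitory neuron markers differed between arrays of the same group, as given below.

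The sequences of 4 probes are shown. They are 2 of the 3 Adra1b probes, which had the largest differences, and those of Drd2 and Adra2a, which are set against inhibitory neuron markers below. No difference or correlation was computed from the sequences. Each is written 5′ to 3′ as in the deposited files, and the capitals mark the longest run of bases that these 2 adrenergic receptor probes have in common.
Adra1b probe 2: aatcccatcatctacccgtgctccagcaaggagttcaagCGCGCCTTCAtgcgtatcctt
Adra1b probe 3: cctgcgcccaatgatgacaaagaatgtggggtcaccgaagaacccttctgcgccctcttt
Adra2a: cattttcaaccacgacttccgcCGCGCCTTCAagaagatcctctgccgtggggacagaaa
Drd2: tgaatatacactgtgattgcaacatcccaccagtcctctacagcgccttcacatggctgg

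The run that Adra1b probe 2 and the Adra2a probe have in common is 10 bases long, and the Drd2 probe holds 9 of them. No pair among the 55 pairs of receptor probes had a longer run in common, out of 60 bases in each probe. In the rn3 coordinates of the files, Adra1b probe 1 lies at chr10:28890338-28890397, probe 2 at chr10:28891147-28891206 and probe 3 at chr10:28946930-28946990, all on the minus strand. Probes 1 and 2 start 809 bases apart, and probes 2 and 3 start 55783 bases apart. The probe of Drd2 lies at chr8:52725587-52725646 and that of Drd1 at chr17:16657572-16657631, both on the plus strand. The probe of Adra2c lies at chr14:81110408-81110467 and that of Adra1d at chr3:119185632-119185691, both on the minus strand. That of Adrb1 lies at chr1:263237731-263237790 on the plus strand. No coordinates are given for the Adra2a probe in the files. The exon or untranslated region under each probe is not stated here, because no annotation of rn3 was used.

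No receptor probe passed an adjusted p of 0.05 in limma with Benjamini-Hochberg adjustment over all 27152 probes, and 0% of all probes did. The adjusted p of the receptor probes lay between 0.403 and 0.955, and 0.403 was also the smallest of any probe. At an unadjusted p under 0.05 stood 4 of the 9 receptor probes, against 11.1% of all probes. These were probes 2 and 3 of Adra1b, which were higher on occlusion arrays (6.48% of all probes were higher at that p), and those of Drd2 and Adra2c, which were lower (4.61%). The differences below are therefore described with their errors, and none is a call. The median absolute difference over all 27152 probes was 0.17, and 61.5% of them had the same sign on both slides, as did 7 of the 9 receptor probes. All probes of Adra1b are among these 7 and measure the same transcript, so counts of receptor probes are not counts of independent genes.

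**Figure D1:**
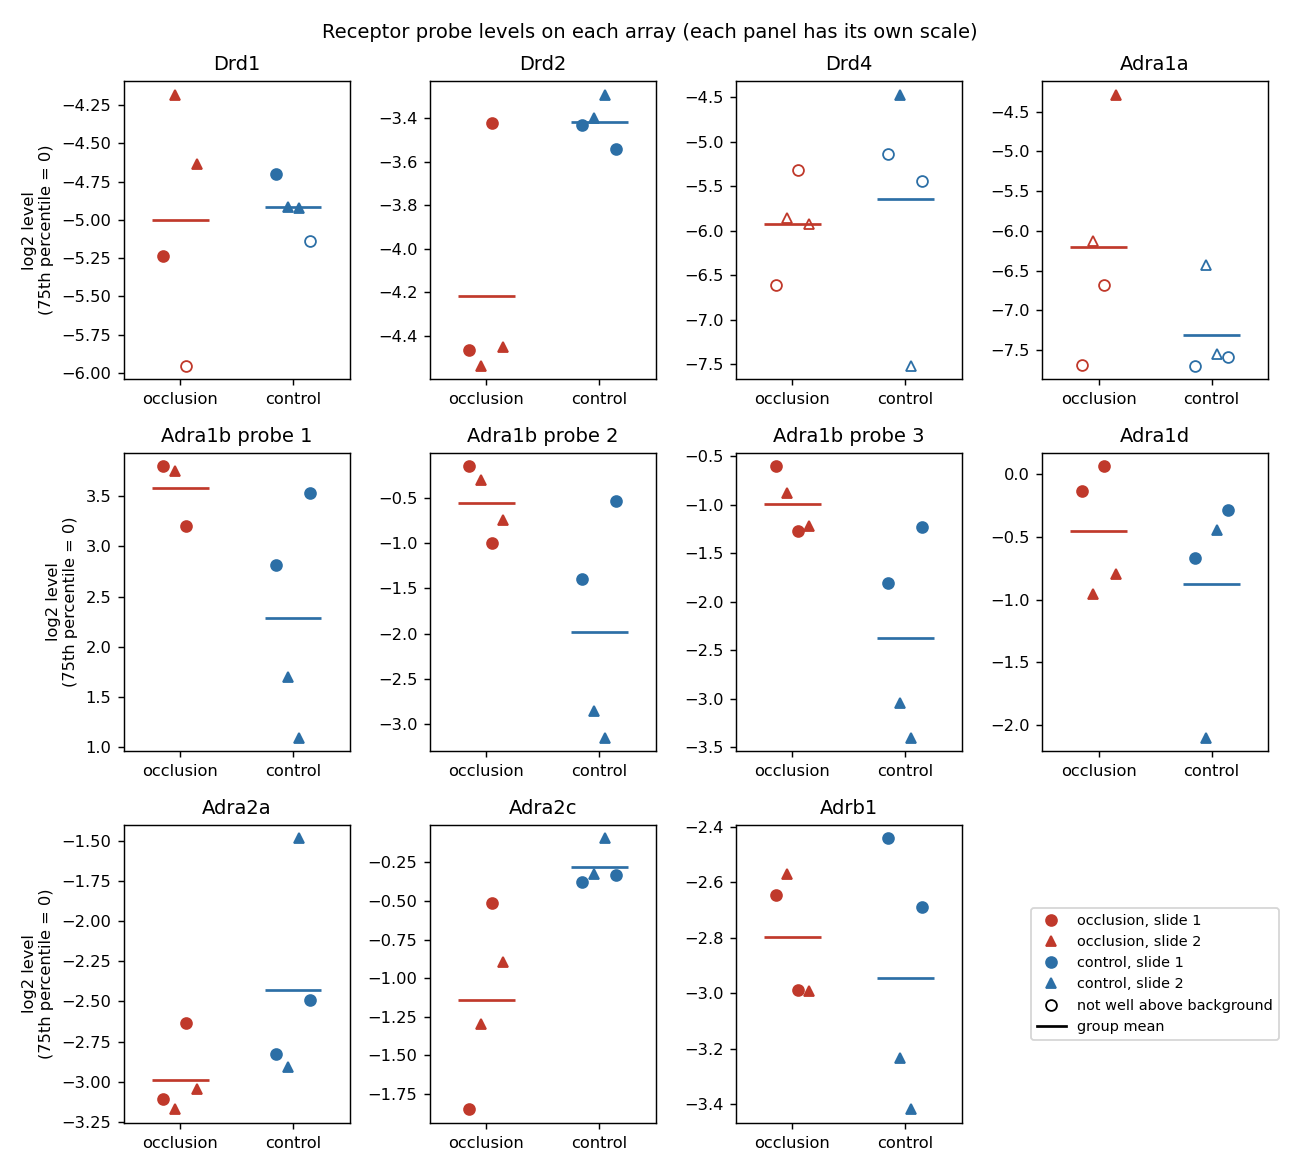
Log2 level of each receptor probe on each of the 8 arrays (75th percentile of the array = 0), with a panel and a vertical scale for each probe. Points are arrays, circles slide 1 and triangles slide 2, open symbols are arrays where the probe was not well above background, and bars are group means. Adra2c is the probe whose groups do not overlap, and of the probes tested those of Adra1b spread most widely among control arrays.

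Among the dopamine receptors, Drd2 was the clearest. Its levels were -4.46, -4.54, -3.42 and -4.45 on occlusion arrays 1 to 4, against -3.43, -3.40, -3.29 and -3.54 on control arrays 1 to 4. Occlusion arrays 1, 2 and 4 lay below all controls, and occlusion array 3 lay among the controls, so the groups overlapped. The mean was -4.22 ± 0.53 on occlusion arrays and -3.42 ± 0.10 on control arrays (SD, n = 4 each), a log2 difference of -0.80 (SE 0.24), or 1.74-fold lower, with an adjusted p of 0.403 in limma (unadjusted p 0.0107). It came to -0.46 on slide 1 and -1.14 on slide 2. Without occlusion array 3 it was -1.07, at an adjusted p of 0.395 in limma. After normexp background correction, which treats dim spots differently, it was -0.42.

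The repeated spots of Drd2 show how well a single array measured it. Of the 77 spots used over the 8 arrays, 74 were well above background. The SD among spots of an array had a median of 0.23 and ranged from 0.084 to 0.80, the widest being occlusion array 1, whose spots ran from -5.69 to -3.63 and so reached the level of the controls. The pooled SD between arrays of a group was 0.38. On occlusion array 3 all Drd2 spots lay near those of the control arrays, as the plot of repeated spots shows.

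**Figure D2:**
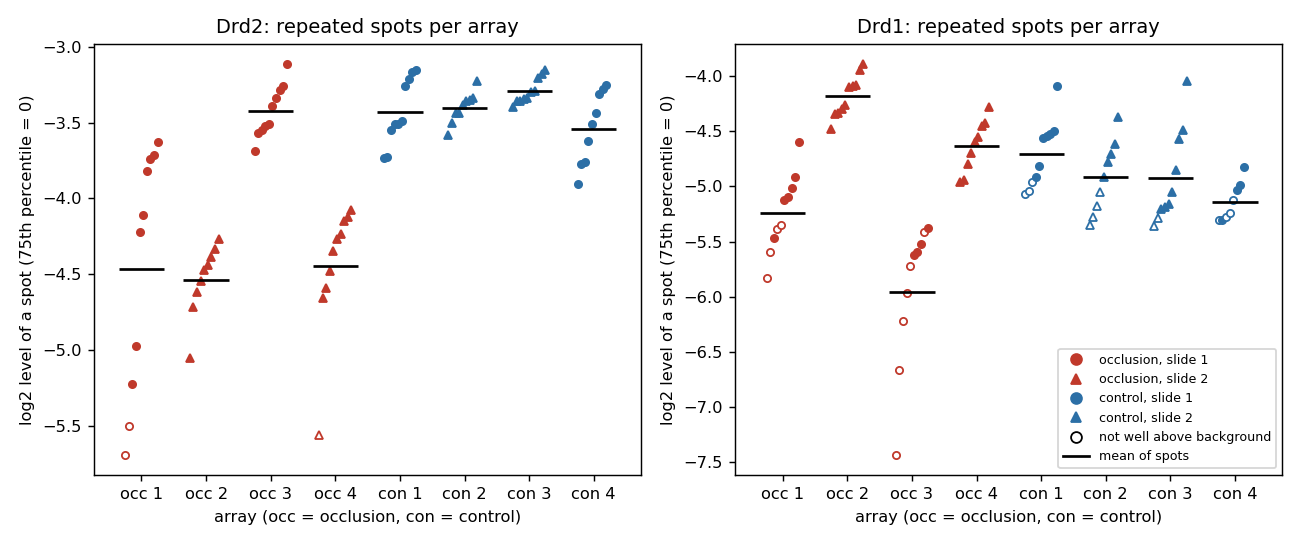
Log2 level of each repeated spot of Drd2 (left) and Drd1 (right) on each array, sorted within the array, with the mean of the spots as a bar. Occlusion arrays stand left of control arrays, and open symbols are spots not well above background. For Drd2 the spots of occlusion array 3 lie at the height of the control arrays, and for Drd1 they reach the lowest levels.

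Drd1 gave levels of -5.24, -4.18, -5.95 and -4.63 on occlusion arrays 1 to 4, against -4.70, -4.92, -4.92 and -5.14 on control arrays 1 to 4. The occlusion arrays lay on both sides of all the controls. The mean was -5.00 ± 0.77 on occlusion arrays and -4.92 ± 0.18 on control arrays (SD, n = 4 each), a log2 difference of -0.08 (SE 0.35) with an adjusted p of 0.955 in limma. Both occlusion arrays of slide 1 were below those of slide 2, and the groups differed by -0.68 on slide 1 and by 0.51 on slide 2. Without occlusion array 3 it was 0.24. Drd1 was near the limit of detection: 53 of its 76 spots and 6 of its 8 array means were well above background.

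Drd4 was well above background only on control array 2. Its levels ranged from -6.61 to -5.32 on occlusion arrays and from -7.52 to -4.47 on control arrays, and no fold is given for it. Of the dopamine receptor genes outside the 9, Drd3 differed by 0.08 (SE 0.44) and Drd5, which like Drd1 couples to stimulatory G proteins, by -0.30 (SE 0.32), at adjusted p of 0.968 and 0.755 in limma.

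Adra1b had the largest differences of the 9 genes, and its 3 probes behaved alike. Probe 3 gave -0.60, -0.87, -1.27 and -1.22 on occlusion arrays 1 to 4, against -1.80, -3.05, -3.40 and -1.23 on control arrays 1 to 4. The occlusion arrays lay close together, whereas controls 2 and 3 lay far below controls 1 and 4, and control 4 reached the occlusion arrays. The mean was -0.99 ± 0.31 on occlusion arrays and -2.37 ± 1.02 on control arrays (SD, n = 4 each), a log2 difference of 1.38 (SE 0.46), or 2.60-fold higher, with an adjusted p of 0.403 in limma (unadjusted p 0.0170).

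Probe 2 of Adra1b gave -0.15, -0.31, -1.003 and -0.74 on occlusion arrays 1 to 4, against -1.40, -2.86, -3.15 and -0.54 on control arrays 1 to 4. Here control 4 lay inside the range of the occlusion arrays. The log2 difference was 1.43 (SE 0.56), with an adjusted p of 0.421 in limma (unadjusted p 0.0316). Probe 1 gave 3.80, 3.76 and 3.20 on occlusion arrays 1 to 3, its spot on occlusion array 4 being left out for an outlier flag, against 2.81, 1.70, 1.09 and 3.54 on control arrays 1 to 4. Its log2 difference was 1.299 (SE 0.56), with an adjusted p of 0.454 in limma. Over the arrays that both measured, probe 1 correlated with probe 2 at r = 0.994 and with probe 3 at r = 0.992, and probes 2 and 3 at r = 0.994. These correlations describe 1 transcript measured repeatedly in the same RNA.

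The 2 controls low in Adra1b were those of slide 2. Within slide 1 the differences of probes 1, 2 and 3 were 0.33, 0.39 and 0.58, and within slide 2 they were 2.36, 2.48 and 2.17. Between the slides, control arrays differed by 1.77, 2.03 and 1.71 (slide 1 minus slide 2), more than the groups did, while occlusion arrays differed by -0.26, -0.05 and 0.11. With slide as a block, probe 3 differed by 1.38 at an adjusted p of 0.242 in limma. The difference between the slides was not tested.

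**Figure D3:**
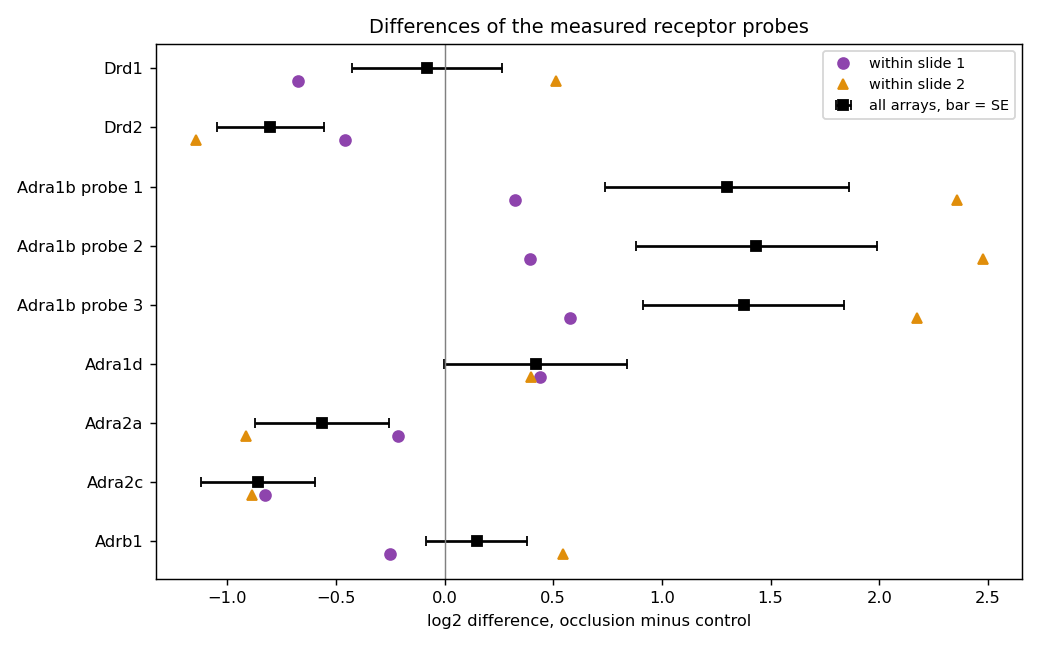
Log2 difference, occlusion minus control, of the 9 tested receptor probes over all arrays (squares, bars = SE) and within each slide (circles slide 1, triangles slide 2). The 3 Adra1b probes lie to the right with slide 2 far beyond slide 1, Drd2, Adra2a and Adra2c lie to the left on both slides, and Drd1 and Adrb1 change sign between slides.

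The other alpha-1 receptors differed less or were not measurable. Adra1d gave -0.14, -0.95, 0.06 and -0.80 on occlusion arrays 1 to 4, against -0.66, -2.10, -0.45 and -0.29 on control arrays 1 to 4. Apart from control 2, which was the lowest, the groups lay over each other. The log2 difference was 0.42 (SE 0.42) with an adjusted p of 0.733 in limma, and without control array 2 it was 0.01. Adra1a was well above background only on occlusion array 4, at -4.29. Its other levels ranged from -7.69 to -6.13 on occlusion arrays and from -7.70 to -6.43 on control arrays, so no fold is given.

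Adra2c was the receptor whose groups did not overlap. It was 1 of 9 receptor probes without overlap, against 6.71% of all 27152 probes, of which 2.82% were lower on occlusion arrays, as Adra2c was, and 3.9% were higher. It gave -1.85, -1.30, -0.51 and -0.90 on occlusion arrays 1 to 4, against -0.38, -0.33, -0.09 and -0.33 on control arrays 1 to 4. The controls lay close together, and the occlusion arrays spread below them. The mean was -1.14 ± 0.57 on occlusion arrays and -0.28 ± 0.13 on control arrays (SD, n = 4 each), a log2 difference of -0.86 (SE 0.26), or 1.81-fold lower, with an adjusted p of 0.403 in limma (unadjusted p 0.0108). The slides gave nearly the same value, -0.83 within slide 1 and -0.89 within slide 2. Leaving out single arrays gave between -1.07 and -0.62.

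Adra2a gave -3.11, -3.17, -2.63 and -3.04 on occlusion arrays 1 to 4, against -2.83, -2.91, -1.48 and -2.49 on control arrays 1 to 4. Control array 3 stood above all the rest, and occlusion array 3 lay among the other controls. The log2 difference was -0.56 (SE 0.31) with an adjusted p of 0.515 in limma, and without control array 3 it was -0.25. Within slide 1 it was -0.21 and within slide 2 it was -0.91. The third alpha-2 receptor, Adra2b, differed by 0.24 (SE 0.51) with an adjusted p of 0.897 in limma.

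Adrb1 had the smallest difference of the tested adrenergic receptors among the 9 genes. It gave -2.64, -2.57, -2.99 and -2.99 on occlusion arrays 1 to 4, against -2.44, -3.23, -3.42 and -2.69 on control arrays 1 to 4. As for Adra1b, controls 2 and 3 were the low ones, and all occlusion arrays lay above them and below control 1, with occlusion arrays 1 and 2 above control 4. The log2 difference was 0.15 (SE 0.23) with an adjusted p of 0.845 in limma, being -0.25 within slide 1 and 0.55 within slide 2. Without control array 3 it was -0.01. Adrb3 was too dim.

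The levels of several receptors varied with neuronal marker levels over the 8 arrays. In tissue, fewer cells of a type and less RNA per cell cannot be told apart. For the 7 probes well above background on all arrays, 21 correlations with the array means of 3 marker lists were computed, with exact permutation p over the 40320 pairings and Benjamini-Hochberg adjustment over the 21. All share the same 8 RNA samples, and the lists were chosen with earlier results of these data known. Of the 21, 11 passed an adjusted p of 0.05 by r and 6 by rho. Several receptors did so with more than 1 list, and differences between lists were not tested. These counts include probes 2 and 3 of Adra1b, which measure 1 transcript, and Drd2, for which no pooled coefficient is given below. The share of all probes that would pass was not computed, so the counts are not read as a trait of the receptors. Adra1b probe 3 correlated with thalamic relay neuron markers at r = 0.991 (rho 0.976, adjusted exact permutation p 0.00104 for r and 0.00417 for rho, n = 8). Without the 2 arrays farthest from the median of the markers r was 0.982, and after removal of the group means it was 0.985. Probe 2 gave r = 0.982 with the same markers. With inhibitory neuron markers probe 3 gave r = -0.791 and rho = -0.810 (adjusted exact permutation p 0.0327 for r and 0.0572 for rho, n = 8). Without the 2 farthest arrays r was -0.50, and after removal of the group means it was -0.60. Arrays with a high relay marker mean had a high Adra1b level in both groups. Among the controls this followed the slides, with relay means of 0.37 and 0.67 on slide 1 and -0.15 and -0.40 on slide 2. The occlusion arrays had 1.18 and 0.68 on slide 1 and 1.04 and 0.82 on slide 2. Slide was not removed from these coefficients, and its part in them was not tested. Saturation touched 3 of the markers in the relay mean, and the coefficients were not recomputed without them.

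Adra2c ran the other way against the relay neuron markers, with r = -0.816 and rho = -0.976 (adjusted exact permutation p 0.0425 for r and 0.00417 for rho, n = 8). Without the 2 farthest arrays r was -0.92, and after removal of the group means it was -0.55. With inhibitory neuron markers Adra2c gave r = 0.785 and rho = 0.738 (adjusted exact permutation p 0.0464 for r and 0.0875 for rho, n = 8). Without the 2 farthest arrays r was 0.850, and after removal of the group means it was 0.57.

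Adra2a correlated with inhibitory neuron markers at r = 0.940 and rho = 0.929 (adjusted exact permutation p 0.00299 for r and 0.0117 for rho, n = 8). Control array 3 was highest in both, and without it and occlusion array 2 r was 0.796. After removal of the group means it was 0.921. With striatal projection neuron markers Adra2a gave r = 0.783 and rho = 0.690 (adjusted exact permutation p 0.0282 for r and 0.121 for rho, n = 8), r = 0.591 without the 2 farthest arrays and r = 0.884 after removal of the group means. Adrb1 correlated with relay neuron markers at r = 0.723 and rho = 0.524 (adjusted exact permutation p 0.0715 for r and 0.318 for rho, n = 8). With the group means removed r came to 0.885, but without controls 2 and 3 it was -0.10, so that relation rested on them.

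The levels of Drd2 formed separate clusters, with occlusion arrays 1, 2 and 4 low and the other 5 arrays high, so no pooled coefficient is given. The 3 low arrays had inhibitory marker means of -1.55, -2.10 and -1.46, and occlusion array 3 had -0.26, within the range of the controls, -0.53 to 1.57. The same 3 arrays ranked highest in the relay neuron markers, at 1.18, 1.04 and 0.82 against 0.68 on occlusion array 3 and at most 0.67 on the controls. The relay means showed no gap like that of Drd2. In the inhibitory means the same 3 arrays stood apart, at -1.46 and below, and the next array was control 2 at -0.53. Adra1d gave r = 0.738 and rho = 0.810 with striatal projection neuron markers (adjusted exact permutation p 0.0464 for r and 0.0572 for rho, n = 8). Without the 2 farthest arrays r was 0.805.

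**Figure D4:**
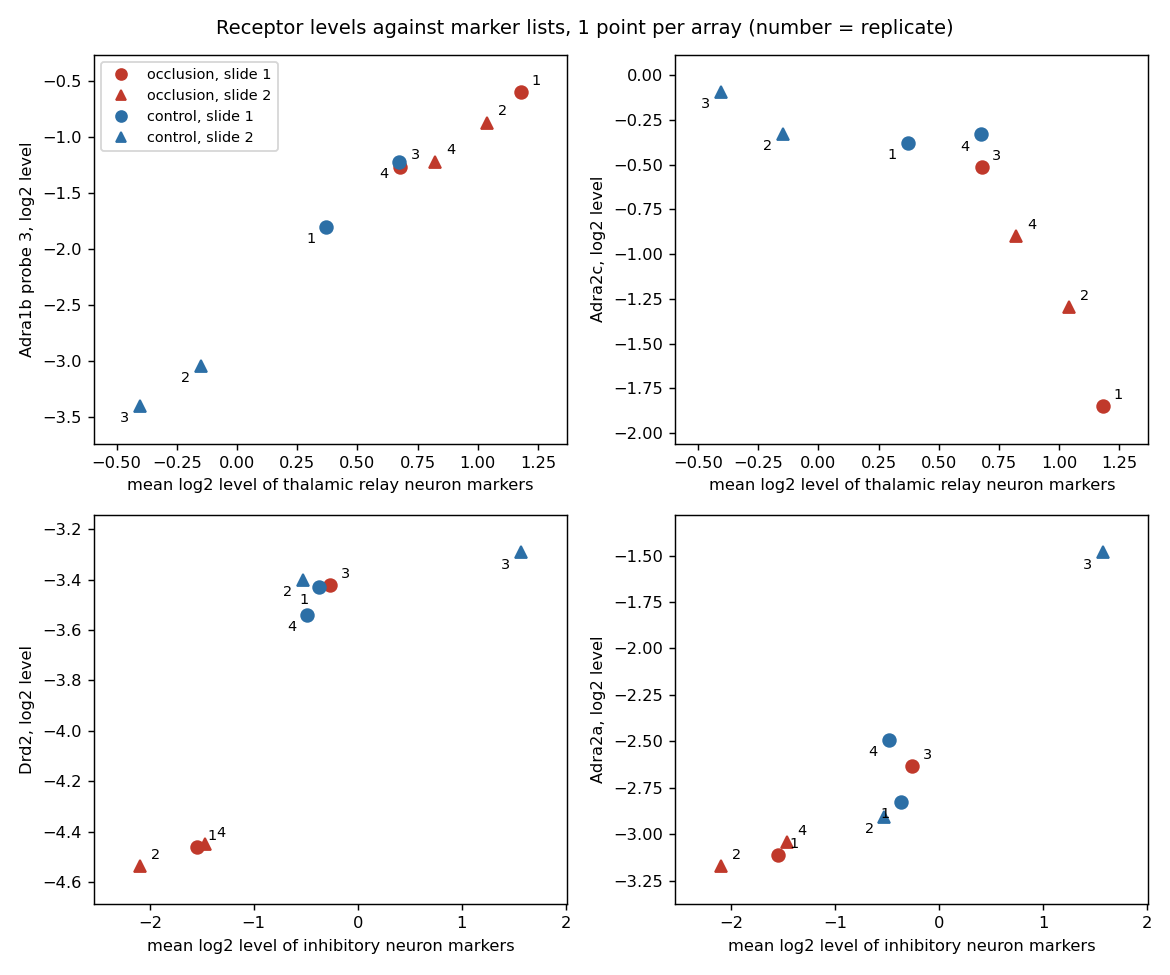
Log2 level of 4 receptor probes (vertical) against the mean log2 level of a marker list (horizontal), with 1 point per array, numbered by replicate, circles for slide 1 and triangles for slide 2. Adra1b probe 3 climbs with the relay neuron markers through both groups, Adra2c runs opposite to them, Drd2 splits into 2 clusters and Adra2a is drawn out by control array 3.

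The mean levels of the marker lists also lay apart between the groups for some lists, and their part in the receptor differences was not tested. The lists were chosen with earlier results of these data known, so their counts beside the shares of all probes are descriptive. Of the 15 relay neuron markers 13 were measured and all 13 were higher on occlusion arrays, as were 14562 of all 27152 probes. Of the 13, 8 were higher at an unadjusted p under 0.05, against 6.48% of all probes, and none passed an adjusted p of 0.05. The median difference of the 13 was 0.70, against 0.02 for all probes. Saturation touched 3 of these 13 markers, and the 10 without it had a median difference of 1.01. The mean level of the 12 with a value on all arrays ranged from 0.68 to 1.18 on occlusion arrays and from -0.40 to 0.67 on control arrays. Among them, Rorb, a transcription factor of the nuclear receptor family, differed by 0.70 (SE 0.16), and Ntng1, a netrin-related adhesion protein, by 1.29 (SE 0.34). Both reached an unadjusted p under 0.05.

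Of the 11 inhibitory neuron markers 9 were measured, 8 of them lower on occlusion arrays, as were 12590 of all 27152 probes. Of the 9, 4 were lower at an unadjusted p under 0.05, against 4.61% of all probes, and none passed an adjusted p of 0.05. The median difference of the 9 was -1.35. Their mean level ranged from -2.10 to -0.26 on occlusion arrays and from -0.53 to 1.57 on control arrays. Gad1, which makes GABA, differed by -2.52 (SE 0.65), and Slc32a1, which loads it into vesicles, by -2.03 (SE 0.62). Dlx2 was too dim on the arrays. The means of the inhibitory and relay lists themselves correlated at r = -0.845 over the 8 arrays, so a receptor that follows 1 list tends to oppose the other.

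Striatal projection neurons, the classic site of Drd1 and Drd2, were considered because the medial thalamus lies near other forebrain regions. Of their 14 markers 13 were measured, 4 higher and 9 lower on occlusion arrays, with a median difference of -0.14. Their mean level ranged from -1.39 to -0.46 on occlusion arrays and from -1.45 to -0.30 on control arrays. Penk, the enkephalin precursor found with Drd2 in striatum, differed by -0.40 (SE 0.47), and Ppp1r1b, the dopamine-regulated phosphatase inhibitor, by -0.27 (SE 0.28). Foxp1, a transcription factor, differed by 0.71 (SE 0.23).

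Of the 13 cortex and hippocampus markers 10 were measured, 6 higher and 4 lower with a median difference of 0.07, among them Emx2 at -2.77 (SE 0.52) and Lamp5 at -2.76 (SE 0.68). Prox1, 1 of the 6 higher, was well above background on 4 occlusion arrays and 0 control arrays, so it was kept through the occlusion arrays alone. Its measured means were -4.22 on occlusion arrays and -5.77 on control arrays (adjusted p 0.403 in limma), and no fold is given for it. Of the 13 markers 2, Emx1 among them, were too dim. Of the 10 oligodendrocyte markers 8 were lower on occlusion arrays, 5 of them at an unadjusted p under 0.05, against 4.61% of all probes. Their median difference was -0.52, and 3 of these 10 reached saturation on some array. Of the 10 astrocyte markers 5 were higher and 5 lower, with a median difference of -0.05. The mean of the 8 with a value on all arrays ranged from 0.74 to 1.18 on occlusion arrays and from 0.96 to 1.32 on control arrays, and Aqp4, the 1 at an unadjusted p under 0.05, differed by -0.87 (SE 0.27). The 8 microglia markers had a median difference of -0.10 and the endothelial and mural markers 0.16. Habenula and hypothalamus markers had median differences of 0.41 and 0.08, and their mean levels spread over more than 2 log2 units within each group. Of the 12 choroid plexus markers 7 were measured, 1 higher and 6 lower, with a median difference of -0.53. Of the lower ones 3 stood at an unadjusted p under 0.05, against 4.61% of all probes. The higher one was Ttr at 1.83 (SE 0.69), and Clic6 differed by -0.91 (SE 0.26). None of these genes passed an adjusted p of 0.05 in limma.

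Genes whose level ran most like each receptor were taken from 14999 named probes that were well above background and never saturated on all 8 arrays. By Pearson's r over the 8 arrays, Slc32a1, Sytl5 and Hook3 ranked first for Drd2, with no coefficient given because of its clusters, and Slc32a1 is also on the inhibitory list. Adra1b probe 2 was most like Prkcz (r = 0.997), Inhbb and Mboat4, and probe 3 was most like Inhbb (r = 0.996), Prkcz and Gabrd. Gabrd encodes the delta subunit of the GABA-A receptor, which relay neurons use outside synapses, and it differed by 1.59. Adra1d was most like Sptbn5 (r = 0.986), Ifnar1 and Gp1bb. Adra2a was most like Pak6 (r = 0.967), Gpc3 and Plcb1. Adra2c was most like Clic1 (r = 0.973), Sytl5 and Ptger2, so Sytl5 ranked high for both Adra2c and Drd2. Adrb1 was most like Etl4 (r = 0.949), Pank1 and Eef2kmt. These coefficients are descriptive, being the highest among many over 8 arrays.

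None of the other genes of the catecholamine system passed an adjusted p of 0.05 in limma. Of the 8 synthesis genes 7 were measured, 4 higher and 3 lower, none at an unadjusted p under 0.05, with a median difference of 0.03. Th, tyrosine hydroxylase, belongs to neurons whose cell bodies lie outside the thalamus proper, and its mean was -1.23 on occlusion arrays and -1.64 on control arrays (n = 4 each), with a difference of 0.41 whose error was larger than itself (SE 1.13). Dbh, which turns dopamine into noradrenaline, was well above background on 4 of 8 arrays and differed by 0.27 (SE 0.67). Pnmt was not matched to a probe. Of the 12 catecholamine neuron markers 9 were measured, with means of -2.71 to -2.05 on occlusion arrays and -3.33 to -1.49 on control arrays, and the dopamine transporter Slc6a3 and Foxa1 were too dim.

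Of the 5 transport genes 4 were measured, 1 higher and 3 lower. Slc22a3, a low-affinity monoamine transporter outside synapses, had the largest positive difference, 1.07 (SE 0.36), with a mean of -0.36 ± 0.18 on occlusion arrays and -1.43 ± 0.79 on control arrays (SD, n = 4 each) and an adjusted p of 0.403 in limma. It was 0.77 within slide 1 and 1.37 within slide 2. Slc18a1, a vesicular monoamine transporter, differed by -0.38 (SE 0.15) at an adjusted p of 0.431 in limma. The neuronal vesicular transporter Slc18a2 differed by -1.50 (SE 1.03), and a further probe of it by -1.54. The noradrenaline transporter Slc6a2 differed by -0.17 (SE 0.27).

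All 5 breakdown genes were measured and lay within 0.21 of 0. Maob differed by 0.09 (SE 0.12), Akr1b1 by -0.14 (SE 0.13) and Aldh2 by -0.20 (SE 0.14). Their array means had the narrowest range of the lists of this system, -0.11 to 0.03 on occlusion arrays and -0.02 to 0.04 on control arrays.

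All 16 signalling genes were measured, 9 higher and 7 lower, with a median difference of 0.16. At an unadjusted p under 0.05, 3 were higher, against 6.48% of all probes. Gnao1, the alpha subunit of Go, to which Drd2 and the alpha-2 receptors couple, had a mean of 2.95 ± 0.11 on occlusion arrays and 2.39 ± 0.19 on control arrays (SD, n = 4 each), without overlap, a difference of 0.56 (SE 0.12) with an adjusted p of 0.403 in limma (unadjusted p 0.00191). Its further probe gave 0.52. Gnal, the olfactory-type stimulatory alpha subunit used by Drd1 in striatum, differed by 0.36 (SE 0.13), and its further probes by 0.20 and 0.23. Gnas, the general stimulatory alpha subunit and 1 of the 3 at that p, differed by 0.35 (SE 0.12). That probe had values on 3 occlusion and 3 control arrays and was saturated on all 6. A further probe of Gnas gave 0.16 (SE 0.22). The inhibitory subunits Gnai1 and Gnai3 differed by -0.50 (SE 0.33) and -0.33 (SE 0.15), neither at an unadjusted p under 0.05. In the Gi and Go family of alpha subunits, Gnao1 was above 0 and Gnai1, Gnai2 and Gnai3 below it.

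**Figure D5:**
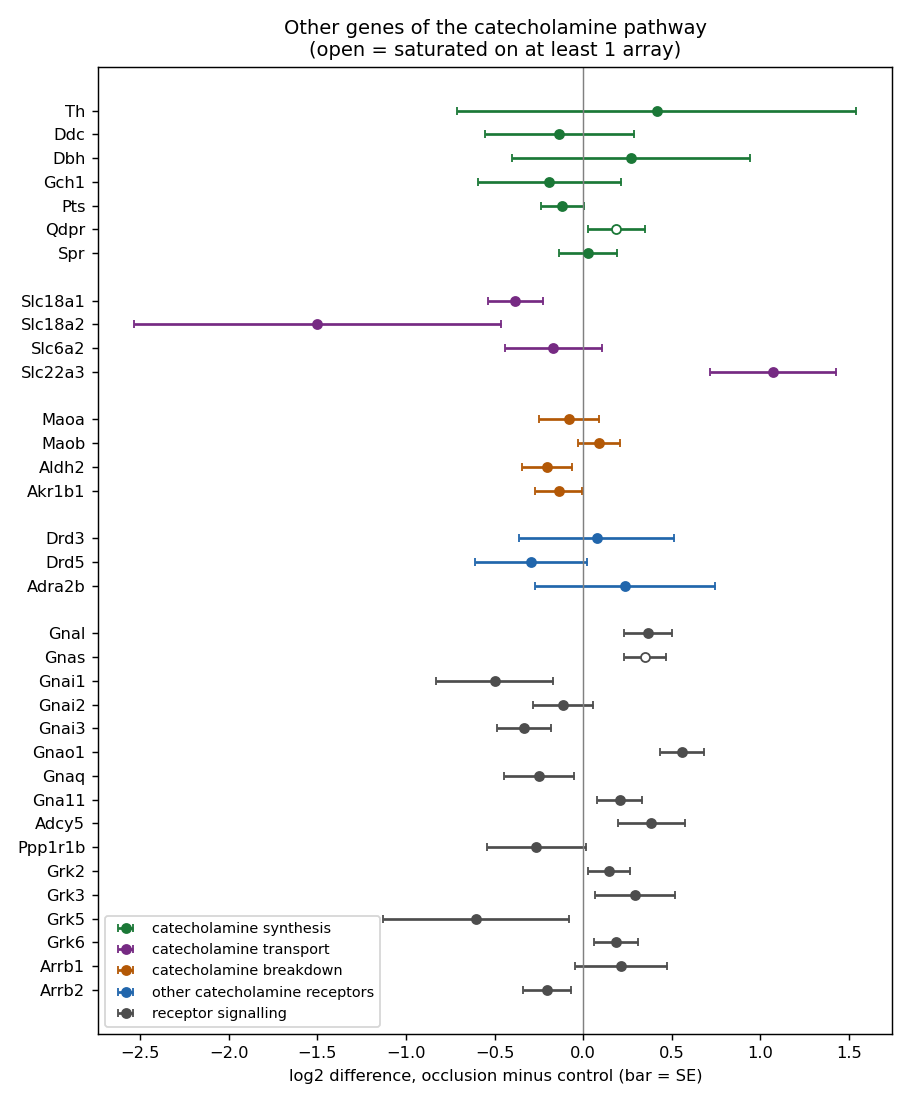
Log2 difference, occlusion minus control, of genes of catecholamine synthesis, transport, breakdown, other receptors and receptor signalling (points, bars = SE), with open points saturated on at least 1 array. Breakdown enzymes sit near 0, Slc22a3 lies furthest to the right and Slc18a2 furthest to the left with a wide error.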

How the data were processed

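Total RNA of 8 animals (1 µg each) was labelled with Cy3 and hybridised to 1-colour Agilent rat arrays, per the labels' protocols. The authors deposited scanner files made with Agilent Feature Extraction 9.5.1.1, per the file headers. The deposited processed intensity is linear, background-subtracted and not normalised between arrays. A combined table that was also deposited gives these values again, to within 0.497%. Control spots and outlier-flagged spots were left out, log2 values were centred on the 75th percentile of each array, and spots of a probe were averaged. A probe counted as well above background on an array if more than 50% of its spots were flagged so. Probes well above background on at least 4 arrays, with 2 values per group, were kept. Of these, 1100 lacked a value on some array and were fitted on the rest.

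Groups were compared with limma 3.58.1 in R 4.3.3 (lmFit and eBayes, two-sided, Benjamini-Hochberg, threshold 0.05), tested on simulated data. Both slides were scanned in a session of their own, so slide and scan are 1 batch, tried as a block and within slides. Names came from accessions (10735 probes), other accessions (117), symbols (5543) and synonyms (3704) of a RefSeq table (GRCr8, names only). The probe with the highest mean stood for other genes. Named were all receptor probes, per list the 2 highest and 2 lowest moderated statistics, pathway genes at an unadjusted p under 0.05, and the 3 genes most alike, with some further list members and correlations chosen after their values were seen. Members and lists were chosen with earlier results of these data known. Alternatives were other scaling, background, filter, outlier and variance settings, slides, blocks and arrays left out. The design text mentions a reference design, but the files hold 1 channel. The values of some list genes are not reported here, and the counts over the lists include them.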

Additional observations from a re-analysis of the deposited data

Results flagged for a closer look

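Within groups of 4 arrays, 55 sets of values were examined for an array far from the others by Dixon's test, which chance alone flags in about 1 in 20 groups, and 3 were found. Drd2 on occlusion array 3 was at -3.42, while the other occlusion arrays lay between -4.54 and -4.45, so the gap took up 0.921 of the group's range. Without that array the difference was -1.07 in place of -0.80. Adra1a on control array 2 was at -6.43, while the other controls lay below -7.5 (gap 0.879 of the range), but none of the 4 was well above background. The mean of the inhibitory neuron markers on control array 3 was 1.57, while the other controls lay between -0.53 and -0.37 (gap 0.926 of the range). That is the array on which Adra2a was highest.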

How the results depend on the processing

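No receptor probe passed an adjusted p of 0.05 in limma under any of the 20 alternatives, the smallest adjusted p being 0.142. Of 178 receptor differences recomputed, 4 changed sign: Adrb1 was -0.25 on slide 1 alone and -0.010 without control replicate 3, and Drd1 was 0.51 on slide 2 alone and 0.24 without occlusion replicate 3 (leaving out single arrays gave -0.010 to 0.32 for Adrb1 and -0.35 to 0.24 for Drd1). Over all alternatives Adra1b probe 3 ranged from 0.58 to 2.17, Adra2c from -1.07 to -0.62, Adra2a from -0.91 to -0.21, Adra1d from 0.01 to 0.62 and Drd2 from -1.14 to -0.42. Over all probes, normexp background correction gave 1 call (an unnamed probe, 1.25, adjusted p 0.0490), and slide 1 alone gave 1766 probes at an unadjusted p under 0.05 against 3010. Of 340 list medians 6 moved by more than the SD of the list's mean level between arrays of a group: receptor signalling to 0.041 and cortex and hippocampus markers to -0.26 on slide 1 alone, catecholamine breakdown to -0.022, inhibitory neuron markers to -2.63 and relay neuron markers to 1.15 on slide 2 alone, and catecholamine breakdown to -0.16 without occlusion replicate 4 (-0.16 to -0.033 over single arrays left out). Lists whose arrays spread widely moved further within that SD: habenula markers were -0.77 on slide 1 alone and 1.40 on slide 2 alone, and on slide 1 alone striatal markers were 0.25, inhibitory markers -0.48 and catecholamine neuron markers -0.73. In all 31 list medians, of 8 of the 17 lists, changed sign. The cause was not tested. Other scaling moved the median of all probes to between 0.01 and 0.05. With the replicate number as a block, 0 probes passed, and Adra1b probe 1 was 1.72. Same-numbered arrays did not deviate together throughout (r 0.355, 0.514, -0.07 and -0.29), so the numbers are no pairing. Drd1, Drd4 and Adra1a are limited by their signal over background.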
